A study of Homo sapiens and Mus musculus with 10 samples.

Results

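The collagen genes are the 44 GENCODE v44 protein-coding genes on the autosomes and the X chromosome whose symbol is COL, a number, A and a number. They were chosen by symbol alone, out of 19970 protein-coding genes, and were described by the accessible regions at their promoters and inside their bodies. The study measured open chromatin by bulk ATAC-seq, in which the transposase Tn5 inserts sequencing adapters into accessible DNA, and a called peak marks a stretch with more insertions than its surroundings. There were 8 human libraries, 2 from each of 4 untreated cell lines, and a pair of mouse libraries that were not used here. GM12878 is a lymphoblastoid line of B cells transformed by Epstein-Barr virus, HEK293T is an embryonic kidney line with a gene for the large T antigen of SV40, HFF1 is a foreskin fibroblast line and K562 is a chronic myeloid leukaemia line with erythroid features. GM12878 and K562 are called the blood lines here, and HEK293T and HFF1 the adherent lines. GM12878 and K562 were grown in RPMI-1640 and the other two in DMEM, all with fetal bovine serum. The labels do not say whether the 2 libraries of a line came from separate cultures, so every p-value below measures the spread between libraries only, which may be technical.

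Collagens are triple-helical proteins of the extracellular matrix. Each molecule is built from 3 alpha chains, and each chain is the product of its own gene. Fibrillar collagens form the tensile fibrils of skin, bone and cartilage, type IV collagens form the sheet of the basement membrane, type VI collagens form beaded filaments around cells, and the fibril-associated types sit on the surface of fibrils. Fibroblasts are the main makers of fibrillar collagen in connective tissue, while blood cells make little of it.

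The peak lists differed in depth. They held 52137 to 127359 peaks, fewest in the HEK293T libraries (52438 and 52137) and most in the HFF1 libraries (127359 and 120344), with 101704 and 103715 in GM12878 and 78601 and 71241 in K562. The local background read level behind the peaks, recovered from each peak's fold enrichment and p-value, ran from 0.465 in HEK293T to 2.43 in an HFF1 library. A peak missing from a HEK293T list may therefore lie below its detection limit, and in bulk material a site open in few cells and a site weakly open in all cells cannot be told apart. Fold enrichments depend on the background level too, so the folds of different lines given below do not show which line is more open. Each list was also thinned to the HEK293T depth. Both values are given for the main counts, and other values are without thinning unless it is named. The cell labels were checked against marker genes. A peak within 1 kb of a start site was present in both HFF1 libraries at 10 of 10 fibroblast markers, in both GM12878 libraries at 6 of 6 B cell markers, and in both HEK293T libraries at 4 of 4 embryonic kidney or neural markers. K562 had such a peak in both libraries at 4 of 6 erythroid markers, and KLF1 and HBG1 had none in any library. Of all genes 76.2% had such a peak in HFF1, 71.9% in GM12878, 67.8% in HEK293T and 70.4% in K562, so the K562 count was not above that share. Each other line had one at 4 or 5 of the fibroblast markers, 3 of the B cell markers, 0 to 2 of the kidney or neural markers and 1 of the erythroid markers.

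Within 1 kb of a start site, more collagen genes were open in the fibroblast line than in any other, but over the start site itself and at equal depth HFF1, with 20 genes, did not exceed HEK293T, with 21. A peak within 1 kb of any annotated start site was found in both HFF1 libraries for 37 of 44 collagen genes, against 76.2% of all protein-coding genes. The same rule gave 27 in HEK293T (67.8% of all genes), 25 in K562 (70.4%) and 21 in GM12878 (71.9%). Under this rule, without thinning, HFF1 was the one line in which the collagen share, 84.1%, lay above the share of all genes, and GM12878 was furthest below it, at 47.7%. All 8 libraries had a peak at 12 collagen genes (59.7% of all genes), and no library had one at COL10A1, COL20A1 and COL28A1 (14.7% of all genes). Open in both HFF1 libraries and in no library of another line were 3 genes, COL3A1, COL6A3 and COL11A2, against 2.05% of all genes. With 2 libraries a line, these presence calls are a description and carry no test.

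**Figure D1:**
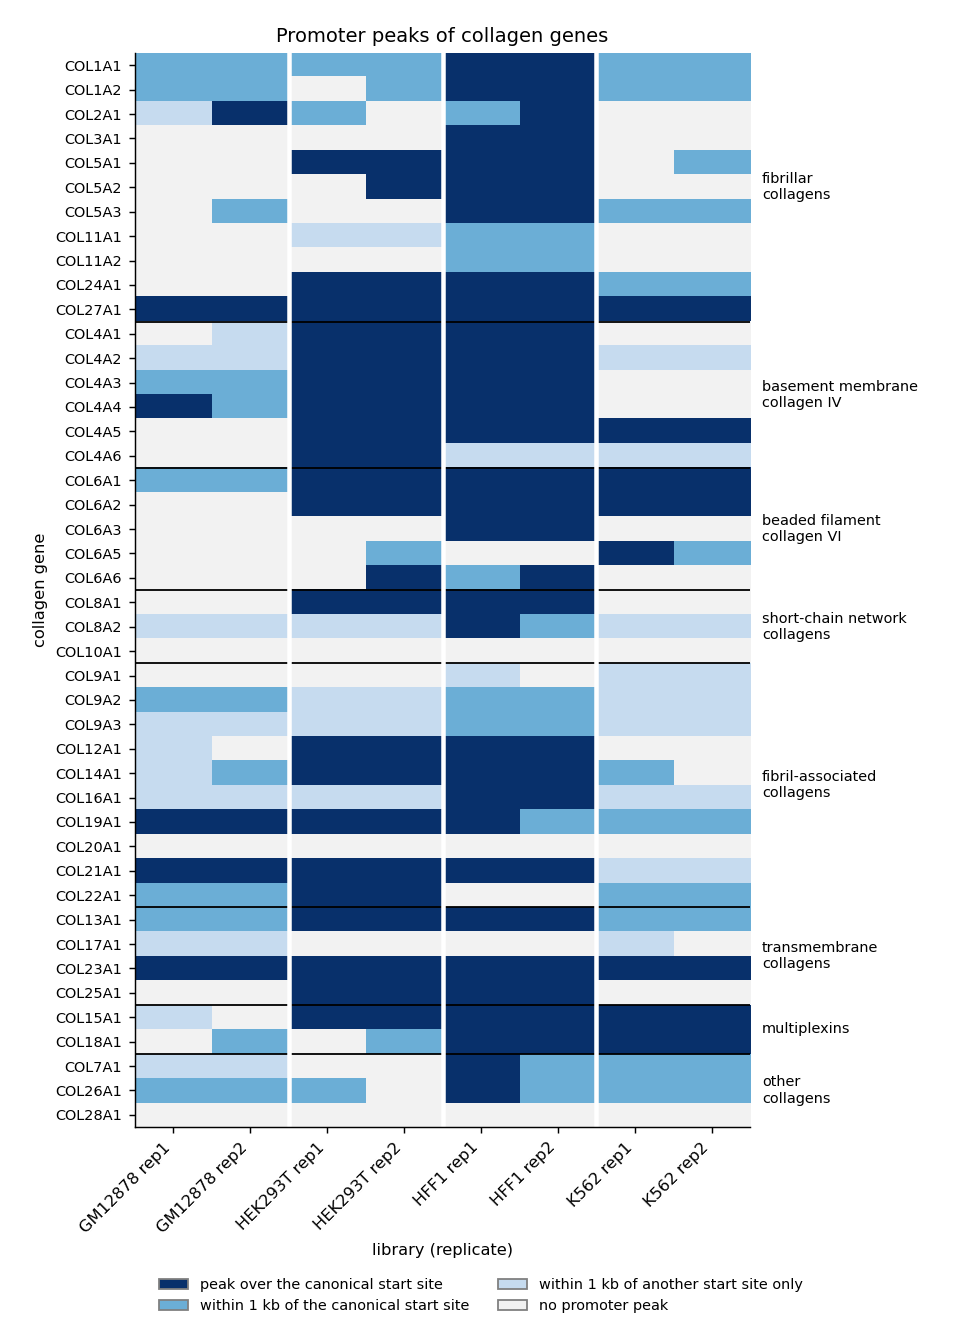
Promoter state of the 44 collagen genes (rows, grouped by family) in the 8 human libraries (columns). The darkest fill is a peak over the canonical start site, the middle fill a peak within 1 kb of it, the lightest blue a peak within 1 kb of another start site only, and grey no promoter peak. Both HFF1 columns are dark in 8 of 11 fibrillar genes (64.3% of all genes), while the GM12878 columns hold 4 genes that are dark in both libraries (59.3%).

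In the blood lines many of the promoter peaks lay away from the main start site. Many collagen genes have several start sites (COL16A1 has 17, whose windows cover 20852 bp), so the calls were repeated at the canonical start site alone, the start of the transcript GENCODE marks as representative. A peak within 1 kb of it was then found in both libraries for 36 genes in HFF1 (71.5% of all genes), 22 in HEK293T (62.9%), 17 in K562 (64.7%) and 13 in GM12878 (66.3%). After thinning, the counts were 27 in HFF1 (62.2%), 22 in HEK293T (62.9%), 13 in K562 (57.4%) and 8 in GM12878 (61.8%). The HFF1 share of collagen genes was thus 81.8%, above that of all genes, before thinning and 61.4%, just below it, afterwards. All 8 libraries had such a peak at COL1A1, COL6A1, COL13A1, COL19A1, COL23A1 and COL27A1 (54.2% of all genes). None had one at COL9A1, COL10A1, COL17A1, COL20A1 and COL28A1 (18.7%).

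A stricter rule, chosen after the peaks had been seen, asked for a peak over the canonical start site itself. Under it, 26 collagen genes were open in both HFF1 libraries (64.3% of all genes), 21 in HEK293T (54.1%), 7 in K562 (58.9%) and 4 in GM12878 (59.3%). Moving from the 1 kb window to the start site therefore left 4 of 13 genes in GM12878, 7 of 17 in K562, 26 of 36 in HFF1 and 21 of 22 in HEK293T. For all genes the same step changed the share far less, in GM12878 from 66.3% to 59.3%. Thinning gave 20 genes in HFF1 (57%), 21 in HEK293T (54.1%), 5 in K562 (53.3%) and 2 in GM12878 (56.4%). Over the start site the collagen share in HFF1 lay below that of all genes both before thinning, at 59.1%, and after it, at 45.5%, so the higher share seen in the 1 kb windows did not hold there.

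The start sites divided the adherent from the blood lines. A peak lay over the start site in both libraries of HEK293T or HFF1, and in both libraries of neither blood line, at 20 of 44 collagen genes, against 6.85% of all genes. The opposite pattern was found at 0 collagen genes, against 4.74% of all genes. After thinning these counts were 22 (7.19% of all genes) and 0 (4.92%). The 20 genes were COL1A1, COL1A2, COL3A1, COL5A1, COL5A2, COL5A3 and COL24A1 of the fibrillar group, 5 of 6 type IV genes (all but COL4A5), COL6A3, COL8A1, COL12A1, COL14A1, COL16A1, COL22A1, COL13A1 and COL25A1. Of these, 11 were open in both HEK293T and HFF1 (2.19% of all genes), so the start-site peak was shared by a fibroblast line and a line that is not one. After thinning, 9 collagen genes were open in both adherent lines and neither blood line (2.15%). Only COL23A1, which encodes a transmembrane collagen, and COL27A1, a fibrillar collagen of cartilage, had a start-site peak in both libraries of all 4 lines. Of all genes 46.1% had one there. After thinning COL27A1 alone remained (42.5% of all genes).

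The fibrillar genes show how position separated the lines. COL1A1 and COL1A2 encode the chains of type I collagen, the main collagen of skin and bone. COL1A1 (GRCh38 chromosome 17, 50184101 to 50201632, minus strand) had a peak between 486 and 1499 bp downstream of its start in every library. That downstream peak had a fold enrichment over local background, as the authors' peak caller gave it, of 7.85 and 7.57 in GM12878, 8.15 and 10.4 in K562, 10.4 and up to 11.7 in HEK293T, and up to 4.10 and 4.13 in HFF1. A second peak, from 150 bp before to 96 bp after the start in replicate 1 and from 159 bp before to 116 bp after in replicate 2, was called only in HFF1, with folds of 3.77 and 4.09. The peak shared by all lines thus lay inside the gene, and the one over the start was listed in the fibroblast libraries alone.

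COL1A2 (chromosome 7, 94394895 to 94431227, plus strand) had the same split. Its HFF1 peak ran from 775 bp before to 245 bp after the start in replicate 1 and from 668 bp before to 241 bp after in replicate 2, with folds of 8.20 and 8.95, and its p-value ranked above 95.2% and 97% of all peaks in those libraries. The GM12878 peaks at 571 to 858 bp and 607 to 858 bp downstream had folds of 11.8 and 10.7. K562 had peaks at 606 to 846 bp and 425 to 807 bp downstream, with folds of 7.07 and 7.81, and HEK293T had one in replicate 2 only, with a fold of 7.57. Within 2500 bp downstream no separate peak was called in HFF1, so near the start HFF1 was open over and upstream of it and the blood lines mainly downstream. The other HFF1 peaks inside the gene, 2 in replicate 1 and 3 in replicate 2, lay at least 15.6 kb downstream. K562 replicate 1 also had a weak peak from 371 to 214 bp before the start, with a fold of 3.27.

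COL3A1 (chromosome 2, 188974373 to 189012746, plus strand) encodes the chain of type III collagen, which accompanies type I in skin and vessels. Its start-site peak was present in both HFF1 libraries and no other, with folds of 3.61 and 3.32. These were weak peaks, whose p-values ranked above only 26.4% and 13.6% of the HFF1 peaks, and the call was lost after thinning. A stronger peak about 1.4 kb downstream had folds of 7.52 and 6.84 in HFF1 and was also listed in HEK293T replicate 2, with a fold of 5.98. COL5A1 and COL5A2, chains of the type V collagen that nucleates type I fibrils, were covered at the start in both HFF1 libraries with folds of 4.99 and 5.27 (COL5A1) and 8.56 and 8.87 (COL5A2). HEK293T was open at the COL5A1 start in both libraries, with folds of 10.6 and 10.1. Its COL5A2 start was covered in replicate 2 only, with a fold of 4.74. By p-value the COL5A1 start peaks ranked above 68.4% and 65.4% of HEK293T peaks, and above 79.7% and 81.2% of HFF1 peaks. COL5A3 (chromosome 19, 9959561 to 10010504, minus strand) was covered at its start in HFF1 alone, with folds of 5.68 and 5.66. K562 had a peak 813 bp downstream with folds of 8.98 and 8.88. This downstream site was shared, since HFF1 had peaks from 869 bp downstream (folds of 4.45 and 4.51). GM12878 replicate 2 had one from 835 bp (fold of 4.94).

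COL11A1 and COL11A2 encode chains of type XI collagen, a cartilage fibril component. Both were open within 1 kb of the canonical start in HFF1 only, but not over it. The COL11A1 peaks lay 364 bp and 218 bp before the start at their nearest ends, with folds of 4.45 and 4.32, and the COL11A2 peaks 755 and 750 bp before it, with folds of 4.03 and 4.07. These COL11A2 peaks are the ones nearest the edge of the 1 kb window among genes open in one line, and both type XI calls were lost after thinning.

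**Figure D2:**
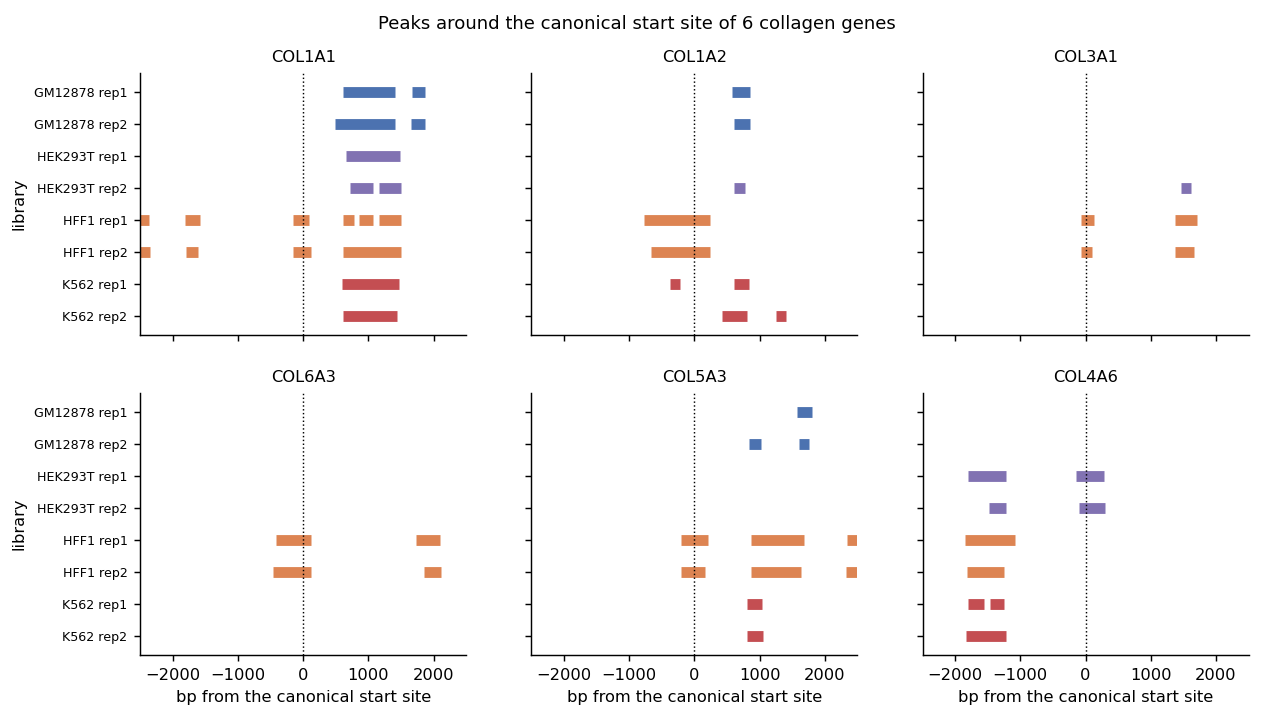
Position of every called peak (bars) within 2500 bp of the canonical start site (dotted line, 0 on the x axis, negative upstream) in the 8 libraries, for 6 collagen genes; peaks running past the axis are cut there. HFF1 bars cover the start of COL1A1, COL1A2, COL3A1, COL6A3 and COL5A3, the blood-line bars lie downstream of it at COL1A1, COL1A2 and COL5A3, except for 1 upstream bar of K562 replicate 1 at COL1A2, and at COL4A6 the start is covered in HEK293T only.

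With the 1 kb window around the canonical start, 7 genes were open in HFF1 and no library of another line (2.75% of all genes): COL3A1, COL6A3, COL8A2, COL9A3, COL11A1, COL11A2 and COL16A1. One, COL4A6, was open in HEK293T alone (0.471%), and none in GM12878 alone (1.8%) or K562 alone (1.23%). After thinning, the HFF1-only set was COL6A3 and COL16A1 (1.54% of all genes). A peak over the start itself was found in HFF1 alone at 6 genes (2.53%): COL1A1, COL1A2, COL3A1, COL5A3, COL6A3 and COL16A1. All but COL3A1 kept this call after thinning (5 genes, 1.64%). COL6A3 and COL16A1 were the 2 genes in the HFF1-only set under all 4 of these rules. Within 1 kb of any start site, however, COL8A2, COL9A3 and COL16A1 had a peak in all 8 libraries (59.7% of all genes). COL11A1 then had one in both libraries of HEK293T and HFF1, and only COL3A1, COL6A3 and COL11A2 were open in HFF1 alone.

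COL6A3 (chromosome 2, 237324003 to 237414328, minus strand) encodes the longest chain of the main type VI collagen. Its HFF1 peak ran from 418 bp before to 117 bp after the start in replicate 1 and from 466 bp before to 128 bp after in replicate 2, with folds of 6.18 and 6.0. COL16A1 (chromosome 1, 31652263 to 31704319, minus strand), a fibril-associated collagen, had HFF1 peaks over its start with folds of 5.67 and 4.30. At COL16A1 a further peak just outside the window, 1108 to 1489 bp upstream, was listed in both libraries of GM12878, HFF1 and K562 and in replicate 1 of HEK293T, with folds of 5.63 and 6.46 in GM12878 and 7.44 and 7.24 in K562. COL8A2 (chromosome 1, 36095239 to 36125222, minus strand), a short-chain collagen of the corneal endothelium, had HFF1 peaks ending within 2 bp of the start, with folds of 4.49 and 4.55. COL9A3 had HFF1 peaks 174 to 341 bp and 179 to 363 bp before its start, with folds of 4.04 and 3.81, and K562 peaks whose nearest ends were 1364 and 1416 bp upstream, again just outside the window.

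The promoter bases of the genes that divide the lines are given next, from RefSeq (GRCh38.p14), 5′ to 3′ on the strand of the gene. The RefSeq promoter table matched 32 of the 44 collagen genes. COL1A1, COL1A2, COL2A1, COL3A1, COL5A2, COL6A1, COL6A5, COL8A1, COL9A3, COL14A1, COL20A1 and COL22A1 were not matched. COL6A3 and COL5A3 are shown for a start-site peak in HFF1 alone, COL8A2 for an HFF1-only peak that ends at the start, COL4A6 for one in HEK293T alone and COL27A1 as a gene covered at the start in all 8 libraries. Each stretch holds up to 200 bases before the start and ends before any annotated untranslated region. Capitals mark GGGCGG (SP/KLF word) and CCAAT (NF-Y word) on either strand, and other searched words where they occur.
COL6A3, chr2:237414208-237414364, minus strand: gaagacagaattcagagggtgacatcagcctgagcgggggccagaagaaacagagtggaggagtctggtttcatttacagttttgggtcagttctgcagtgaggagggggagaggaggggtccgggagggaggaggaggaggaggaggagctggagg
COL5A3, chr19:10010505-10010704, minus strand: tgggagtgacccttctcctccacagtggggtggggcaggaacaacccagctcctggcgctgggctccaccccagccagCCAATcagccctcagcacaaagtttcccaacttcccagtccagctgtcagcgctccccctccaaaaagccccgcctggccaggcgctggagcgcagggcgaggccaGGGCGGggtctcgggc
COL8A2, chr1:36125223-36125422, minus strand: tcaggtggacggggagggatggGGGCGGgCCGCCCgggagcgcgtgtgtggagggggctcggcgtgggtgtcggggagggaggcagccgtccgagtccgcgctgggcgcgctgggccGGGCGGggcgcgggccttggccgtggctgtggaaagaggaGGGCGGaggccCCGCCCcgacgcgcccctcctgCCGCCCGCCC
COL4A6, chrX:108438431-108438622, minus strand: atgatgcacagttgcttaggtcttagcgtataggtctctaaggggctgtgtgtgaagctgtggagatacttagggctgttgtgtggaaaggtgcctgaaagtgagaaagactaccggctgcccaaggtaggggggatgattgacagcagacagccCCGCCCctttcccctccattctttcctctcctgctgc
COL27A1, chr9:114155337-114155536, plus strand: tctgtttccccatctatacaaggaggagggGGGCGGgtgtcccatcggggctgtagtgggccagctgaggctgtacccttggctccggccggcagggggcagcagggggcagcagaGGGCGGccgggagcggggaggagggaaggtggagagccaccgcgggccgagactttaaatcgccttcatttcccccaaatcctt

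In these stretches COL6A3 held none of the searched words, COL5A3 held both and COL8A2 held GGGCGG several times over. Over the 250 bases before the start, GGGCGG occurred in 20 of 32 collagen promoters (62.5%) and in 42.6% of 35116 RefSeq promoters. CCAAT occurred in 8 of 32 (25%) against 32.0%, TGAGTCA (the AP-1 word) in 0 of 32 against 4.20%, and the GATA factor word AGATAA in 3 of 32 against 9.17%. GGAATG (TEAD) was found in COL12A1 alone, against 11.9%, and TGTGGT (RUNX) in none, against 11%. All words were searched on both strands. The collagen set held 1 promoter per gene, the one nearest the canonical start, while the 35116 RefSeq promoters were not reduced in this way. The word, GC and CpG values of the sets are therefore not fully alike in kind. The collagen promoters were richer in GC, with a median of 65.8% against 58.0%, and held a median of 16.5 CpG dinucleotides against 11. The lowest GC shares of the 32 were those of COL10A1 (37.6%), COL28A1 (39.6%), COL17A1 (40.4%) and COL9A1 (45.6%). These are 4 of the 5 genes without a peak within 1 kb of the canonical start in any library, and the other one, COL20A1, was not matched.

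Type IV collagen genes lie head to head in pairs that share a promoter region, and each pair had its own pattern. COL4A1 (chromosome 13, 110148963 to 110307157, minus strand) and COL4A2 (110305812 to 110513209, plus strand), the ubiquitous pair of the basement membrane, have canonical starts 127 bp apart. A peak covered both starts in both libraries of HEK293T and HFF1 and in no library of GM12878 or K562, with folds at COL4A1 of 8.68 and 7.42 in HEK293T and 5.38 and 5.71 in HFF1. By p-value these peaks ranked above 69.5% and 54.6% of HEK293T peaks, and above 69.3% and 69.8% of HFF1 peaks. This pair had the start-site split between adherent and blood lines in its plainest form, and a peak here cannot be assigned to either gene. The 100 bases between the starts that lie outside untranslated regions are printed on the plus strand, with CCAAT and GGGCGG in capitals.
COL4A1 to COL4A2, chr13:110307158-110307257, plus strand: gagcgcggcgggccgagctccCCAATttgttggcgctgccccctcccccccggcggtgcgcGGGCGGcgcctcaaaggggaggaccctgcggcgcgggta

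COL4A3 (chromosome 2, 227164624 to 227314792, plus strand) and COL4A4 (227002714 to 227164453, minus strand), which encode chains of the mature glomerular basement membrane, have starts 419 bp apart. Both starts were covered in both libraries of HEK293T and HFF1, and the K562 libraries had no peak there. GM12878 had flanking peaks around the COL4A3 start, with folds from 4.97 to 6.36, one of which covered the COL4A4 start in replicate 1. COL4A5 (chromosome X, 108439838 to 108697545, plus strand) and COL4A6 (108155607 to 108439497, minus strand) have canonical starts 1416 bp apart. The COL4A5 start was covered in all 6 libraries of HEK293T, HFF1 and K562, with folds of 8.92 and 10.6 in HEK293T, 8.75 and 9.96 in HFF1 and up to 7.79 and 9.32 in K562. The COL4A6 start had its own peak in HEK293T only, with folds of 7.81 and 6.73. HEK293T thus was the one line open at all 6 type IV start sites (54.1% of all genes), against 5 in HFF1 (64.3%), 1 in K562 (58.9%) and 0 in GM12878 (59.3%). After thinning the counts were 6 in HEK293T (54.1%), 4 in HFF1 (57%), 0 in K562 (53.3%) and 0 in GM12878 (56.4%).

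The order of the lines varied between the other families. Of the 11 fibrillar genes, 8 had a start-site peak in HFF1 (64.3% of all genes) and 3 in HEK293T (54.1%). K562 and GM12878 had 1 each (58.9% and 59.3%). The HFF1 count was thus near the share of all genes, and the other counts lay below theirs. After thinning the HFF1 count was 6 (57%) and the others were unchanged (54.1% in HEK293T, 53.3% in K562 and 56.4% in GM12878). Among the 5 type VI genes the counts before thinning were 3 in HFF1 (64.3%), 2 in HEK293T (54.1%), 2 in K562 (58.9%) and 0 in GM12878 (59.3%). COL6A1 and COL6A2, which encode the short type VI chains, were covered in HEK293T, HFF1 and K562, while the peaks near COL6A1 in GM12878 had folds of 3.72 and 3.34 and p-values above only 1.86% and 0.592% of the peaks of their libraries. COL6A5 was the single gene open within 1 kb of its canonical start in K562 but in both libraries of no other line, with folds up to 4.91 and 5.88. Of the 10 fibril-associated genes, 5 had a start-site peak in HEK293T (54.1% of all genes), 4 in HFF1 (64.3%), 2 in GM12878 (59.3%) and 0 in K562 (58.9%). The HEK293T count was thus near the share of all genes. With thinned lists the counts in the same order were 5 (54.1%), 3 (57%), 1 (56.4%) and 0 (53.3%). COL22A1 of that group, a collagen of tissue junctions, had a start-site peak in HEK293T (folds of 12.1 and 10.6), flanking upstream peaks in GM12878 and K562, and no promoter peak in either HFF1 library.

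Of the 3 genes with no promoter peak in any library, COL10A1, the collagen of hypertrophic cartilage, had its nearest peak 1920 and 2031 bp upstream in the HFF1 libraries and at least 13847 bp away in the others. COL20A1 had a peak 1623 to 1660 bp upstream in GM12878, HFF1 and K562, and its nearest ones in HEK293T were 11845 and 20292 bp upstream. COL28A1 had its nearest peak 3347 to 5613 bp upstream in 7 libraries and 30818 bp upstream in HEK293T replicate 1.

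Inside gene bodies, the fibroblast line also had the most collagen peaks. The 44 genes together held 468 and 447 peaks in HFF1, 192 and 201 in GM12878, 193 and 166 in K562 and 134 and 135 in HEK293T. Per 100 kb of gene body that was 6.99 and 6.68 peaks in HFF1, where all protein-coding genes had 5.97 and 5.68. In GM12878 it was 2.87 and 3.00, against 4.93 and 5.01, in K562 2.88 and 2.48, against 3.82 and 3.52, and in HEK293T 2.00 and 2.02, against 2.59 and 2.58. Collagen genes thus carried more peaks per length than genes at large in HFF1 and fewer in the other 3 lines. Genes overlapping another gene share its peaks, which concerns COL18A1 (20149 bp overlap with SLC19A1), COL10A1 (wholly within NT5DC1), COL4A1 with COL4A2 (1346 bp), COL19A1 with LMBRD1 (681 bp) and COL9A3 with TCFL5 (155 bp).

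The number of peaks per gene was then tested. Each count was scaled to 100000 gene-body peaks of its library and taken as log2(scaled number + 1), so that fold changes of genes with few peaks are understated, and limma compared the lines over the 15574 genes with at least 8 peaks in all. Of the 43 collagen genes tested (COL11A2 had too few peaks), 35 differed among the 4 lines at an adjusted p under 0.05, against 69.2% of all genes. Set against the mean of the other 3 lines on this log2 scale, HFF1 was higher at 27 collagen genes, where 17.8% of all genes were higher, and lower at 4, where 33% were lower. Of the 27, COL6A3, COL6A2 and COL20A1 passed the filter of 8 peaks only through their HFF1 peaks. Their calls are therefore not independent of that filter. Without the filter, 27 of 44 collagen genes were higher in HFF1, and 3407 of 17996 genes in all. At COL10A1, also one of the 27, the order holds on the log2 scale only, since its mean of scaled peaks was 2.5 in HFF1 and 2.92 in the other lines. The median difference was 0.74 on the log2 scale over the collagen genes and -0.21 over all genes tested. Without scaling, 29 collagen genes were higher (36.7% of all genes) and 2 lower (8.73%), with medians of 1.23 and 0.29. Collagen genes are long, with a median of 144.75 kb against 27.5 kb, but the counts were not limited to long genes: 17 of 26 collagen genes over 100 kb were higher (34.6% of such genes) and 10 of 17 up to 100 kb (12.8%).

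**Figure D3:**
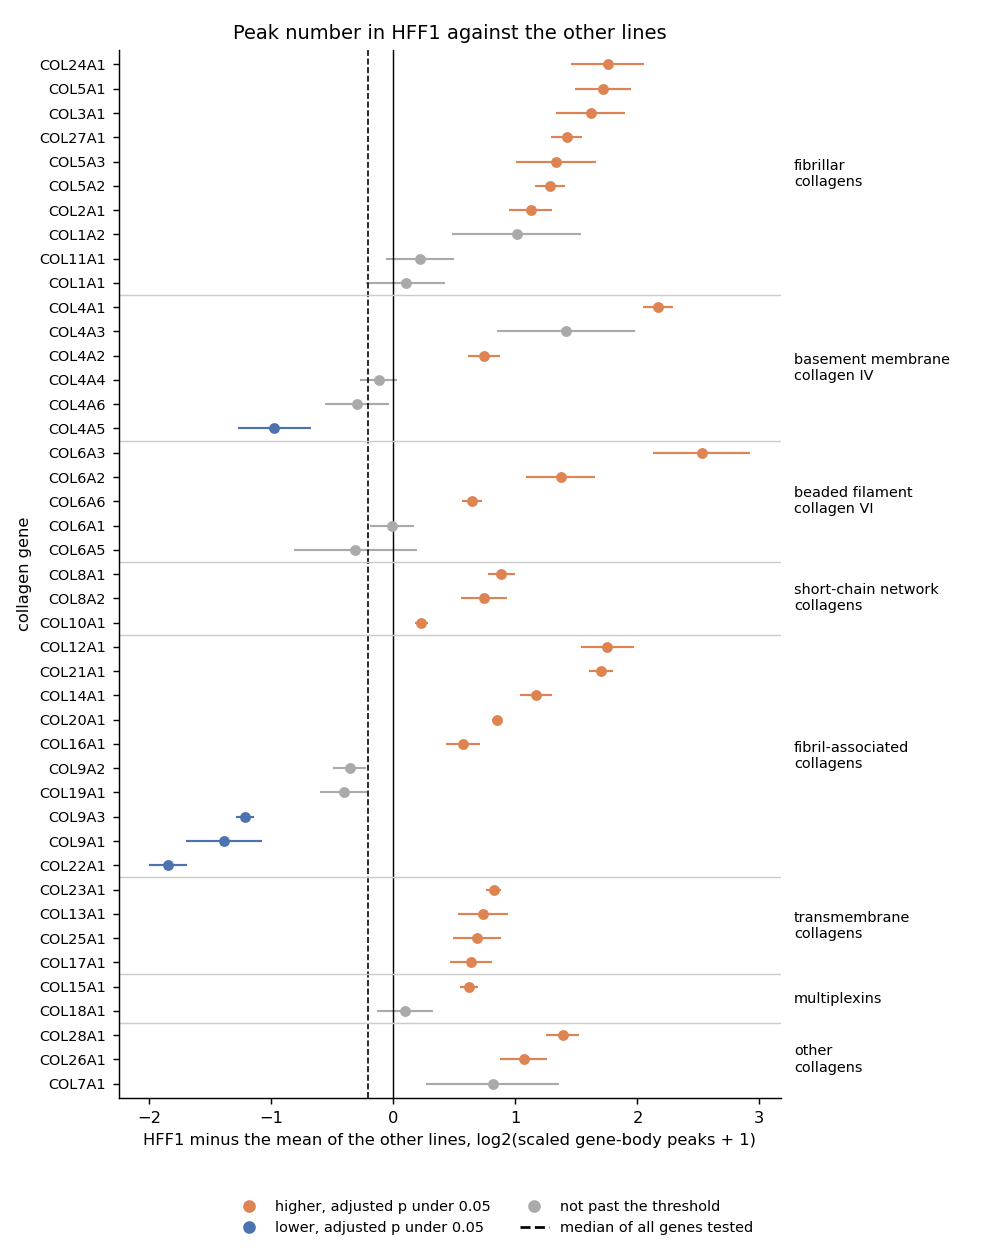
Difference between HFF1 and the mean of the other lines in log2(scaled gene-body peaks + 1) for the 43 collagen genes tested, by family; points are estimates and bars their standard errors. Orange points are higher and blue points lower at an adjusted p under 0.05, grey points are not called, and the dashed line is the median of all genes tested, -0.21. In the fibrillar group 7 genes are orange (17.8% of all genes were higher), and the 4 blue points are COL4A5, COL9A3, COL9A1 and COL22A1 (33% were lower).

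Depth bore on the number of calls. After thinning to the HEK293T depth, 20 of the 38 collagen genes tested differed among the lines, close to the share of all genes at that depth, 49.9%. Of these 38, 15 were higher in HFF1 (12.8% of all genes) and 4 lower (26.5%), and the median was 0.72 against -0.22 over all genes. With the 40000 strongest peaks of each library, 30 collagen genes were tested, of which 24 differed (65.5% of all genes), 12 were higher (16.8%) and 7 lower (41.1%). Of the 27 genes called higher, 15 were called higher in each of the 8 fits that left out a library, and leaving out HFF1 replicate 1 lowered the count most, to 18.

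Of the 10 fibrillar genes tested, 7 were called higher in HFF1 (17.8% of all genes) and none lower (33%). COL24A1, a fibrillar gene of bone, had 18 and 18 peaks in HFF1 against 5 and 7 in GM12878, 2 and 4 in HEK293T and 2 and 1 in K562. Its log2 difference was 1.76 ± 0.30 (SE, limma adjusted p = 0.00541). COL5A1 (chromosome 9, 134641803 to 134844843, plus strand) had 21 and 28 peaks in HFF1 and 3 to 6 in every other library, a difference of 1.72 ± 0.23 (limma adjusted p = 0.00216). COL3A1 had 7 and 6 peaks in HFF1, 2 and 4 in GM12878, 1 and 2 in HEK293T and 0 in both K562 libraries, a difference of 1.62 ± 0.28 (limma adjusted p = 0.00613). COL27A1 had 30 and 26 peaks in HFF1 and 5 to 7 elsewhere, a difference of 1.42 ± 0.13 (limma adjusted p = 0.000583). In these 4 genes each HFF1 library lay above all 6 others. The calls of COL24A1 and COL3A1 were lost after thinning (differences of 2.06 and 1.29, limma adjusted p = 0.0537 and 0.0519), and that of COL3A1 also without HFF1 replicate 1 (limma adjusted p = 0.0574). The type I genes were not called: COL1A1 had 5 and 2 peaks in HFF1 and 4 and 4 in GM12878 (0.10 ± 0.32, limma adjusted p = 0.809), and COL1A2 had 3 and 4 in HFF1 and 0 to 2 elsewhere (1.01 ± 0.53, limma adjusted p = 0.167). Both are short genes with few peaks, 17.5 kb and 36.3 kb.

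The 2 largest differences were in matrix genes outside the fibrillar group, and the first, COL6A3, passed the 8-peak filter only through its HFF1 peaks. COL6A3 had 7 and 10 peaks in HFF1, 0 and 1 in GM12878, 2 and 1 in HEK293T and 0 in both K562 libraries, which gave a difference of 2.53 ± 0.40 (limma adjusted p = 0.00404). COL4A1 had 16 and 18 peaks in HFF1, 3 and 4 in GM12878, 2 and 2 in HEK293T and 1 and 1 in K562, a difference of 2.17 ± 0.12 (limma adjusted p = 0.00018). Its neighbour COL4A2, which shares the promoter, had 30 and 28 in HFF1, 18 and 18 in GM12878, 8 and 6 in HEK293T and 11 and 8 in K562, a difference of 0.74 ± 0.13 (limma adjusted p = 0.00677) that was not called without HFF1 replicate 1 or HFF1 replicate 2 (limma adjusted p = 0.0594 and 0.0533). COL4A1 had been open at its start in HEK293T too, so promoter state and body peaks did not order the lines alike. COL4A3 reached 1.42 but with an SE of 0.56 was not called (limma adjusted p = 0.0857). Of the other type VI genes, COL6A2, which also passed the filter only through HFF1, had 6 and 3 peaks in HFF1 and 0 to 2 elsewhere (1.37 ± 0.28, limma adjusted p = 0.0112). That call was lost without HFF1 replicate 1, with a difference of 0.98 (limma adjusted p = 0.0817).

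Among the 10 fibril-associated genes 5 were higher (17.8% of all genes) and 3 lower, which is near the 33% of all genes. COL12A1 (chromosome 6, 75084326 to 75206267, minus strand), which coats type I fibrils under strain, had 12 and 13 peaks in HFF1 and 1 to 3 elsewhere, a difference of 1.75 ± 0.22 (limma adjusted p = 0.00154). COL21A1 (chromosome 6, 56056590 to 56394094, minus strand) had 32 and 29 peaks in HFF1, 9 and 9 in GM12878 and 4 or 5 in the others, a difference of 1.70 ± 0.10 (limma adjusted p = 0.000207). COL14A1 had 25 and 22 in HFF1 and 3 to 10 elsewhere. COL20A1 was called on 2 peaks in each HFF1 library against 0 or 1, where equal replicates left an SE of only 0.04. This call thus rests on very few peaks, and the gene passed the 8-peak filter only through HFF1. COL28A1, of the other collagens, had 9 and 8 peaks in HFF1 and 1 to 3 elsewhere (1.39 ± 0.14, limma adjusted p = 0.000583) despite having no promoter peak in any library.

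HFF1 was called lower at 4 genes, against 33% of all genes. COL22A1 (chromosome 8, 138588235 to 138914041, minus strand) had 3 and 2 peaks in HFF1, 4 and 5 in GM12878, 9 and 7 in HEK293T and 9 and 8 in K562, a difference of -1.85 ± 0.16 (limma adjusted p = 0.000543). COL9A1 and COL9A3 encode chains of type IX collagen of cartilage. COL9A1 had 3 and 1 peaks in HFF1 and 2 to 5 elsewhere (-1.39 ± 0.31, limma adjusted p = 0.0151), and COL9A3 had 2 and 2 in HFF1, 4 and 4 in GM12878, 2 and 2 in HEK293T and 6 and 5 in K562 (-1.22 ± 0.07, limma adjusted p = 0.000215). COL4A5 had 1 and 3 in HFF1 and 2 to 4 elsewhere (-0.97 ± 0.30, limma adjusted p = 0.0419), the weakest of these calls, which was kept only in the fit without HFF1 replicate 2 among those leaving out a library (limma adjusted p from 0.0665 to 0.134 in the others). COL9A1 was not called without HFF1 replicate 2 (-0.87, limma adjusted p = 0.0756). On raw peak numbers the HFF1 and other libraries overlapped or touched for all of these but COL22A1, and without scaling only COL22A1 and COL9A3 were called lower. The replicates of COL9A3 were equal or nearly so, which left its small SE, so that call rests on few peaks.

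A higher call against the mean of 3 lines does not make HFF1 the highest line. COL25A1, a brain collagen found in amyloid plaques, had 24 and 24 peaks in HFF1 and 21 and 21 in K562, and after scaling K562 was the higher of the 2, at 39.9 and 43.4 against 29.2 and 30.7. COL10A1 had 3 and 3 peaks in K562 and 2 and 2 in HFF1, and 0 in GM12878. Fitted without GM12878, its difference of 0.23 became -0.56. COL6A5 was not called and had most peaks in K562, 9 and 6, against 3 and 3 in HFF1. COL23A1, a transmembrane collagen, had 17 and 16 peaks in HFF1, 9 and 8 in K562, 5 and 5 in GM12878 and 4 and 4 in HEK293T. All 4 transmembrane collagens were called higher in HFF1 (17.8% of all genes), by 0.63 to 0.82. After thinning only COL13A1 of these was called (limma adjusted p = 0.0262), and the differences of COL17A1, COL23A1 and COL25A1 were 0.56, 0.19 and 0.71 (limma adjusted p = 0.448, 0.553 and 0.182). COL23A1 kept its call in every fit that left out a library. COL13A1 and COL17A1 lost theirs without either GM12878 or either HFF1 library, and COL13A1 also without either K562 library. COL25A1 lost its call without GM12878 replicate 2 or either HFF1 or K562 library. For these 3 genes the limma adjusted p reached 0.184, 0.144 and 0.161. COL15A1 of the multiplexins rose by 0.62, and COL18A1, with equal numbers in HFF1 (10 and 9) and K562 (10 and 9), was not called.

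The peaks inside collagen genes were next merged over libraries into regions. Away from start sites there were 616 such regions in collagen genes and 104216 in all protein-coding genes. Of the collagen regions 214, or 34.7%, were present in both HFF1 libraries and in no other line, against 23.3% of all regions. GM12878-only regions made up 7.14% against 17.2%, K562-only regions 6.98% against 6.52%, HEK293T-only regions 0.974% against 1.47%, and regions in all 4 lines 4.06% against 3.76%. The excess of HFF1-only and the deficit of GM12878-only regions were thus the departures from genes at large. Of the 616 regions 595 lay in introns, 14 in coding exons and 7 in untranslated exons. Counting also the promoter regions that touch a gene body, HFF1-only regions were most numerous in COL27A1 (18), COL21A1 (17), COL5A1 (16) and COL4A2 (16), and COL22A1, COL4A5, COL6A1, COL6A6, COL7A1, COL9A1, COL9A2 and COL11A2 had none. The HFF1-only promoter peaks of COL11A2 lie upstream of its body and are not among the regions counted.

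**Figure D4:**
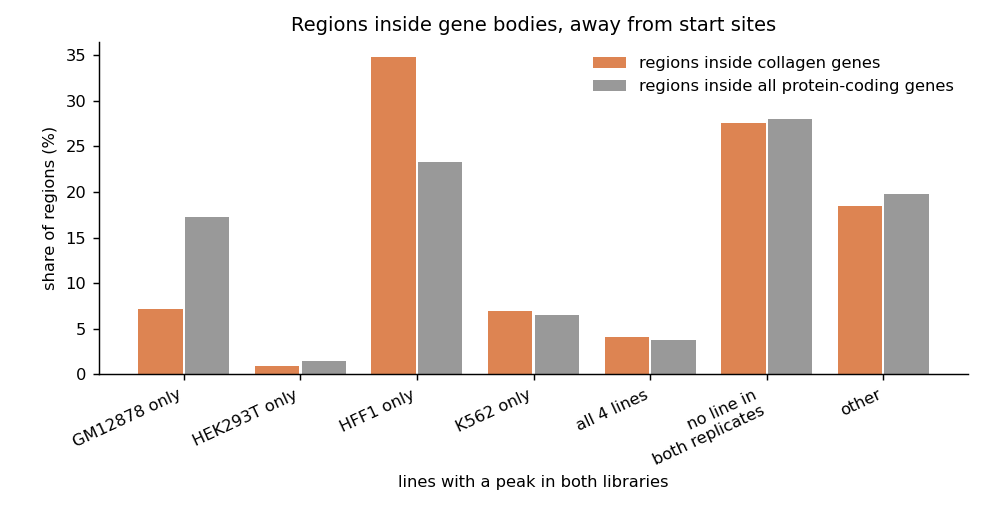
Share of regions inside gene bodies and away from start sites (y axis, %) by the lines in which they were called in both libraries, for 616 regions in collagen genes (orange) and 104216 in all protein-coding genes (grey). HFF1-only regions are 34.7% of the collagen set and 23.3% of all, and GM12878-only regions 7.14% and 17.2%.

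The HFF1-only regions were ranked in the 32 collagen genes matched to RefSeq promoters, and those in the other 12 genes were not ranked. Of the strongest regions ranked, 4 are shown because each holds the AP-1 word TGAGTCA or its reverse complement. They are given with 50 bases on either side of the summit, on the strand of the gene. Capitals mark the AP-1 word and, where present, the TEAD word GGAATG and the RUNX word TGTGGT or its reverse complement. All lie in introns. The COL28A1 region is 96.8 kb from the canonical start and had folds of 13.9 and 12.5 in HFF1. The COL21A1 region is 146 kb from the start, with folds of 14.7 and 13.9. The COL23A1 region, 137 kb from the start, had the highest folds of the 4, 16.4 and 14.8, and the COL15A1 region, 97.5 kb from the start, had folds of 10.7 and 10.6.
COL28A1, chr7:7439026-7439126, minus strand: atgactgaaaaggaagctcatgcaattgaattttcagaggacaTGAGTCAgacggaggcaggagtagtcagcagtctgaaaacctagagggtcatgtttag
COL21A1, chr6:56101212-56101312, minus strand: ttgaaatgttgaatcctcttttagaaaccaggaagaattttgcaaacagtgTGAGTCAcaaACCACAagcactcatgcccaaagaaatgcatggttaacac
COL23A1, chr5:178453411-178453511, minus strand: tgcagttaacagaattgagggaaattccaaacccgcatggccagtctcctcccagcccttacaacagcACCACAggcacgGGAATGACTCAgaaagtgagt
COL15A1, chr9:99041336-99041436, plus strand: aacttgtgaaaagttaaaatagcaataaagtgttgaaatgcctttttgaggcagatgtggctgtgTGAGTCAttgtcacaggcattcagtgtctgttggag

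These 4 were chosen for the word, so they say nothing of how often it occurs. In COL23A1 the TEAD and AP-1 words overlap. In windows of the same size around the summits of HFF1 peaks inside collagen genes, TGAGTCA was present in 16.2% of 389 peaks in replicate 1 and 15.1% of 372 in replicate 2, and in 16.5% of all gene-body peaks of both libraries. GGAATG was present in 10.8% and 12.1% of the collagen peaks against 9.77% and 9.94%, and TGTGGT in 12.6% and 13.4% against 10.7% and 10.8%. In GM12878 TGAGTCA was present in 6.37% and 7.93% of the collagen peaks against 8.28% and 8.14%. In HFF1, collagen peaks therefore held the AP-1 word at about the rate of all gene-body peaks of the same libraries.

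The genes that modify, process, cross-link and sense collagen were read from the same fit. Of 43 genes in 4 lists, 42 were tested, and 14 were higher in HFF1 (17.8% of all genes) and 10 lower (33%), with a median difference of 0.13. The lists stood closer to genes at large than the collagen genes did. Among the 17 modifying and folding genes, 4 were higher and 4 lower. PLOD2, a lysyl hydroxylase, had 12 and 11 peaks in HFF1 and 1 to 3 elsewhere, a difference of 1.99 ± 0.14 (limma adjusted p = 0.000298), and P3H2 and P4HA3, prolyl hydroxylases, differed by 1.43 and 1.38. Among the 10 export and processing genes, 3 were higher and 2 lower. ADAMTS2, the protease that removes the amino propeptide of procollagens, had 28 and 26 peaks in HFF1, 0 in both GM12878 libraries, 4 and 5 in HEK293T and 5 and 4 in K562, a difference of 2.76 ± 0.11 (limma adjusted p = 7.42e-05), and ADAMTS14 and ADAMTS3 differed by 1.16 and 0.55.

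Of the 6 cross-linking genes, 4 were higher (17.8% of all genes) and 1 lower (33%). LOXL2, a lysyl oxidase, had 28 and 22 peaks in HFF1 and 5 or 6 in every other library, a difference of 1.41 ± 0.11 (limma adjusted p = 0.000393), and LOX and LOXL1 differed by 0.99 and 0.77. Of the 10 receptor genes, 3 were higher and 3 lower, the latter near the share of all genes. DDR2, a collagen-activated tyrosine kinase of mesenchymal cells, differed by 1.21, and the integrin chains ITGA2 and ITGA11 by 0.92 and 0.53. Receptors of blood cells went the other way. GP6, the platelet collagen receptor, was open at its promoter in K562 alone, in both libraries, with 4 and 4 body peaks there and 0 elsewhere, and LAIR1, an inhibitory collagen receptor of leukocytes, likewise in GM12878 alone, with 5 and 5 body peaks and 0 elsewhere.

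Some marker genes of other cell types were also higher or open in HFF1. All 10 fibroblast markers had more body peaks in HFF1. Of 5 keratinocyte markers, TP63 was higher and the KRT5 promoter was open in HFF1 alone, while KRT14 and KRT1 had none in HFF1. Of 4 endothelial markers, TEK was higher, with 8 and 8 peaks in HFF1 against 0 to 2, while CDH5 and VWF had no promoter peak in any library. Of 3 leukocyte markers, 2 were open at the promoter in HFF1 (76.2% of all genes) and 2 in GM12878 (71.9%), and the 1 tested for body peaks was not higher. Of all genes 17.8% were higher in HFF1. Whether such cells were present in the HFF1 libraries, or bear on the collagen calls, was not tested.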

How the data were processed

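Open chromatin was measured by ATAC-seq in 8 human libraries, 2 each of GM12878, HEK293T, HFF1 and K562. Per the submitters' processing notes, the tools were cutadapt 3.2, Bowtie2 2.4.2, Picard and MACS2 2.2.7.1, and the human build was hg38; their settings are not given in the sources used here. The deposited peak lists, 1 per library, hold a score, a fold enrichment over local background (a ratio) and a −log10 p-value and −log10 q-value for each peak, as the authors' peak caller gave them. The deposited lists hold no read counts.

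Peaks were matched to GENCODE v44 by overlap of at least 1 base with the gene body, the canonical start site or the 1 kb either side of start sites. limma 3.58.1 (R 4.3.3, trend, Benjamini-Hochberg) was fitted to log2(gene-body peaks per 100000 + 1) over all genes with at least 8 peaks. In simulated data it recovered 64% of 4-fold and 1% of 2-fold changes of HFF1 against the mean of the other lines, 100 genes each, and called 0 of 14590 unchanged genes. The simulated numbers had Poisson spread between replicates, while real replicates of genes such as COL20A1 and COL9A3 were equal or nearly so. These rates therefore need not hold for the real fit. For thinning, each peak's read pileup was recovered from its fold and p-value (solved for 100% of peaks), reduced binomially to the HEK293T depth and kept where it passed the HEK293T threshold. The collagen genes, the gene lists and the rules for naming genes were chosen with earlier results of these data known. Named with values are genes open in 1 line only, pairs sharing a promoter, the 10 largest and 5 smallest called differences (only 4 were lower), genes without a promoter peak and those nearest the window's edge; others named were chosen after their values were seen. The same replicate numbers did not pair libraries across lines (correlations of -0.0038 to 0.0135).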

Additional observations from a re-analysis of the deposited data

How the results depend on the processing

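Presence calls and counts of called genes depended on depth and on the window. With the lists thinned to the shallowest library, 20 of 38 collagen genes tested differed among the lines (49.9% of all genes) instead of 35 of 43 (69.2%), 15 rather than 27 were higher in HFF1 (12.8% rather than 17.8% of all genes), and 1 rather than 3 promoters was open in HFF1 only. With 40000 peaks per library, 12 of 30 tested were higher (16.8% of all genes) and 7 lower (41.1%) in HFF1, and 9 promoters were open in GM12878 and 20 in HFF1. Unscaled peak numbers left 2 lower. Around the canonical start site, 13 promoters were open in GM12878 and 7 in HFF1 only. Added after seeing the data, the thinned canonical window gave 8 in GM12878 and 13 in K562. A peak over the start site gave 4 in GM12878, 7 in K562 and 6 in HFF1 only, and 2, 5 and 5 after thinning, with 20 in HFF1. Leaving out each library in turn, 29 to 34 genes differed among the lines, 18 to 27 were higher and 3 to 5 lower in HFF1, promoters were open at 23 to 24 genes in GM12878, 29 to 32 in HEK293T, 37 to 38 in HFF1 and 26 to 27 in K562, and 3 to 5 were open in HFF1 only (5 without HEK293T replicate 2). Differences of single genes reversed for COL10A1 (-0.085 at a −log10 q of at least 5 and -0.56 without GM12878, whose peak names have a prefix of their own, so that line and prefix cannot be told apart), COL4A2 (-0.0061 with 40000 peaks) and COL6A6 (-0.91 thinned). The cause of these changes was not tested. With the replicate number as a block, 33 genes differed, 26 were higher and 3 lower, and the numbers do not pair the libraries. The other 98 alternative counts stayed within 1.5 times the reported ones. Of the values of single called genes under the alternatives, 483 kept their direction and call and 81 kept their direction only.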
